A study of Mus musculus with 3 samples.

Results

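The cells described here were 1908 kappa B cells from mouse blood that carried at least 2 transcripts summed over Zbtb20, Fcrl5, Bhlhe41 and Zbtb32. They were chosen from 44212 deposited barcodes, of which 28333 had at least 200 genes, at most 7.5% mitochondrial UMIs and under 20% haemoglobin UMIs. A UMI, or unique molecular identifier, marks 1 captured transcript. A kappa B cell had at least 4 UMIs of Cd79a, Cd79b and Ms4a1, at most 1 UMI of the Cd3 genes, under 10 UMIs of Jchain and at least as many UMIs of the kappa constant gene Igkc as of the lambda constant genes. Members, as the chosen cells are called here, numbered 241 in the young library, 621 in the aged library and 1046 in the aged-GA library. The comparison cells, called other kappa B cells, had 0 or 1 UMI of the 4 genes and numbered 1873, 3051 and 3895. The 4 genes chose the members, so their levels describe the choice and test nothing. The genes that differ between members and other kappa B cells are given as a description too, because they were read in the same cells.

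Peripheral blood mononuclear cells of female C57BL/6 mice were profiled by droplet single-cell RNA sequencing in 3 libraries, with 1 library per group. The young group was 8 weeks old and purchased, the aged group was 16 months old and reared in the laboratory, and the aged-GA group was 16 months old and received glycyrrhizic acid (GA), a saponin of licorice root, for 1 month by tail vein injection. The labels give no treatment for the young and aged groups, and the study's methods describe injections of phosphate-buffered saline for controls. The study collected the blood of several mice per group, how it was pooled for each library is not given in the sources used here, and no group was sequenced again, so that no difference between groups has a replicate check and age, supplier and library cannot be told apart. Intervals are exact 95% intervals, the limit given for a count of 0 is 3 counts of the total, and both cover counting error only.

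ZBTB20 is a zinc finger repressor found in germinal centre, memory, plasma and B-1 cells. FCRL5 is an Fc receptor-like protein of B-1 and marginal zone B cells that modulates antigen receptor signals. BHLHE41 is a transcription factor needed by B-1a cells, and ZBTB32 is a repressor that limits memory B cell recall responses. B-1 cells are self-renewing B cells that make much of the natural IgM, and follicular B cells are the recirculating naive cells that make up most B cells of blood. In the GRCm38 assembly Fcrl5 lies at chr3:87435773-87500678 on the plus strand, Bhlhe41 at chr6:145858243-145865558 on the minus strand, Zbtb32 at chr7:30589681-30598909 on the minus strand and Zbtb20 at chr16:42875881-43642602 on the plus strand.

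Most members were chosen by Zbtb20. Zbtb20 was found in 92.5%, 95.0% and 94.9% of members of the young, aged and aged-GA libraries, and it was the only one of the 4 genes in 162, 371 and 653 of them (67.2%, 59.7% and 62.4%). Bhlhe41 was found in 25.7%, 31.7% and 29.0% of members. Fcrl5 was found in 29, 67 and 120 members (12%, 10.8% and 11.5%), and Zbtb32 in 6.22%, 12.2% and 12%. At least 2 of the 4 genes were seen in 27.8%, 36.2% and 34.6%. A name that joins Zbtb20 and Fcrl5 therefore covered about the whole population for the first gene and a small part of it for the second, and the members are called here by their rule.

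Levels are summed UMIs of a population scaled to counts per 1000000 UMIs (CPM). Zbtb20 stood at 506, 591 and 565 CPM in young, aged and aged-GA members and at 50.6, 56.7 and 56.3 CPM in other kappa B cells. T cells, gated by at least 4 UMIs of the Cd3 genes and none of the 3 B cell genes, held 95.0, 98.2 and 115 CPM of Zbtb20. Fcrl5 stood at 35.7, 31.2 and 26.3 CPM in members and at 2.52, 1.52 and 1.47 CPM in other kappa B cells. The 3 libraries differed little in Zbtb20 and Fcrl5 once cells had been chosen on them. Bhlhe41 stood at 88.1, 121 and 85.4 CPM and Zbtb32 at 19.0, 65.0 and 43.5 CPM, so that Zbtb32 was lowest in young members.

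The limit of 2 UMIs cut through a falling series. In the young library 1467 kappa B cells had 0, 406 had 1, 129 had 2, 54 had 3, 27 had 4 or 5 and 31 had 6 or more UMIs of the 4 genes. The cells just outside the limit, with 1 UMI, numbered 406, 718 and 1042 in the 3 libraries, and those just inside it, with 2 UMIs, numbered 129, 316 and 458. No gap separated members from the rest, and the members are defined as a range of a count. Whether a distinct cell type lies among them cannot be read from such sparse counts and was not tested. The members were also deeper: their median was 4495, 3759 and 4611.5 UMIs, against 3319, 3033 and 3656 in other kappa B cells. Cells with 6 or more UMIs of the 4 genes had medians of 7762, 6281 and 7115 UMIs.

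Members made up 11.4% of kappa B cells in the young library (241 of 2114, 95% interval 10.1 to 12.8), 16.9% in the aged library (621 of 3672, 15.7 to 18.2) and 21.2% in the aged-GA library (1046 of 4941, 20.04 to 22.3). These intervals did not overlap. A fixed UMI limit follows depth, so each kappa B cell was also thinned to 2000 UMIs. The share was then 4.67% in young (97 of 2077, 3.8 to 5.67), 8.33% in aged (298 of 3577, 7.45 to 9.29) and 9.20% in aged-GA (451 of 4904, 8.40 to 10.0), with 37, 95 and 37 shallower cells left out. The young share stayed below the other two, while the aged and aged-GA intervals overlapped. With at most 5% mitochondrial UMIs in place of 7.5%, and no thinning, the shares were 10.05%, 16.2% and 17.2%, which brought the aged and aged-GA libraries closer and kept young lowest.

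Cells that are not B cells also passed the limit. T cells with at least 2 UMIs of the 4 genes made up 11.7%, 12.7% and 18.7% of T cells, at median depths of 5047.5, 4680.5 and 5734 UMIs against 3383.5, 3090.5 and 3773 UMIs in kappa B cells. After thinning to 2000 UMIs the T cell shares were 2.65%, 3.55% and 4.47%, below those of kappa B cells in each library. With Zbtb20 left out, at least 2 UMIs of Fcrl5, Bhlhe41 and Zbtb32 were found in 40, 151 and 223 kappa B cells (1.89%, 4.11% and 4.51%) and in 0.0833%, 0.288% and 0.358% of T cells. On these 3 genes the young share was again the lowest, and the aged and aged-GA shares differed by less than their intervals.

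**Figure D1:**
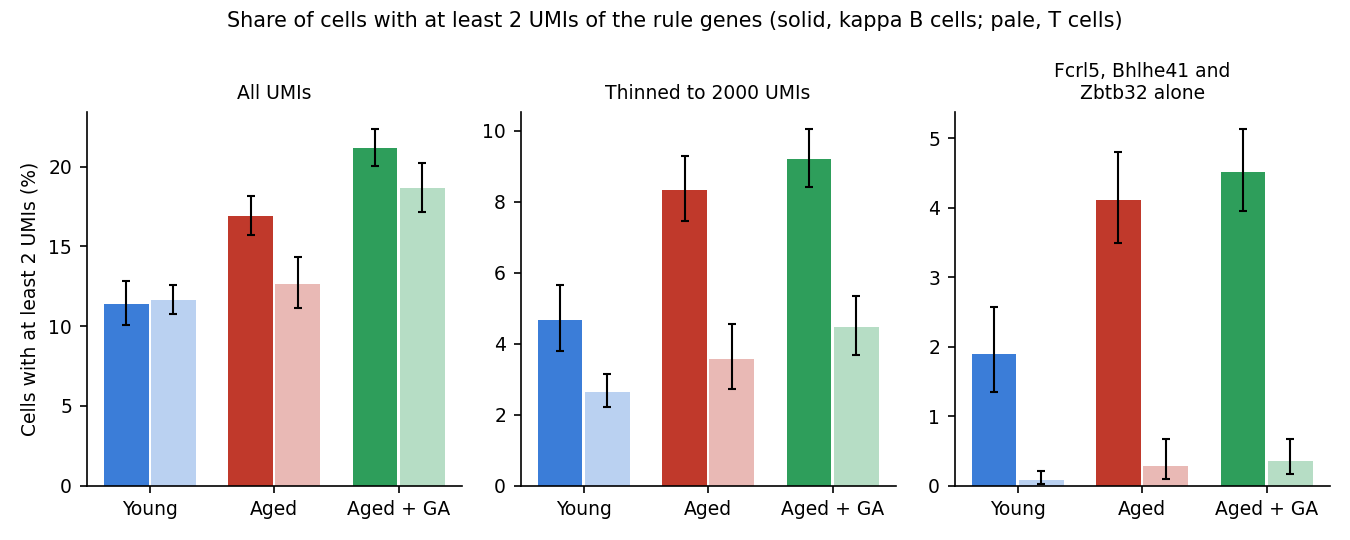
Share of cells with at least 2 UMIs of Zbtb20, Fcrl5, Bhlhe41 and Zbtb32 (left), the same after thinning each cell to 2000 UMIs (middle) and for Fcrl5, Bhlhe41 and Zbtb32 alone (right), in percent, with exact 95% intervals. Solid bars are kappa B cells and pale bars T cells. The T cell bars come close to the kappa B bars in the left panel (11.7% and 11.4% in young) and stand far below them in the right panel (0.0833% and 1.89% in young).

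Mzb1, which encodes a chaperone of IgM assembly in the endoplasmic reticulum of marginal zone and B-1 cells and was not part of the rule, stood at 389 CPM (356 to 424) in young, 481 CPM (457 to 506) in aged and 453 CPM (436 to 470) in aged-GA members. Other kappa B cells held 280, 278 and 296 CPM, and T cells at most 3.46 CPM. The log2 ratio of members over other kappa B cells, taken with 1 CPM added to both, was 0.48, 0.79 and 0.61. The higher level belonged to one subset of the members. Members with at least 1 UMI of Fcrl5, Bhlhe41 or Zbtb32, numbering 79, 250 and 393, held 556, 643 and 603 CPM of Mzb1, and members with Zbtb20 alone held 284, 311 and 327 CPM, close to other kappa B cells.

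The levels of several genes followed the number of rule gene UMIs in a cell. Mzb1 was 273, 275 and 290 CPM in young, aged and aged-GA kappa B cells with 0 such UMIs and 666, 830 and 709 CPM in those with 6 or more. S100a6, a calcium-binding protein gene, was 35.0, 304 and 93.4 CPM at 0 and 1742, 2384 and 878 CPM at 6 or more. Zcwpw1, which encodes a histone methylation reader, was 5.03, 7.19 and 7.03 CPM at 0 and 91.5, 61.5 and 114 CPM at 6 or more. Each of these had its highest level in the last class, and cells with 2 or 3 UMIs lay far below it. Fcer2a, the low-affinity IgE receptor CD23 of follicular cells, moved the other way, from 239, 277 and 308 CPM at 0 to 58.5, 63.7 and 78.2 CPM at 6 or more. Depth climbed along the same classes, and its part in these levels was not tested here beyond the weighted comparison given with the gene counts.

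**Figure D2:**
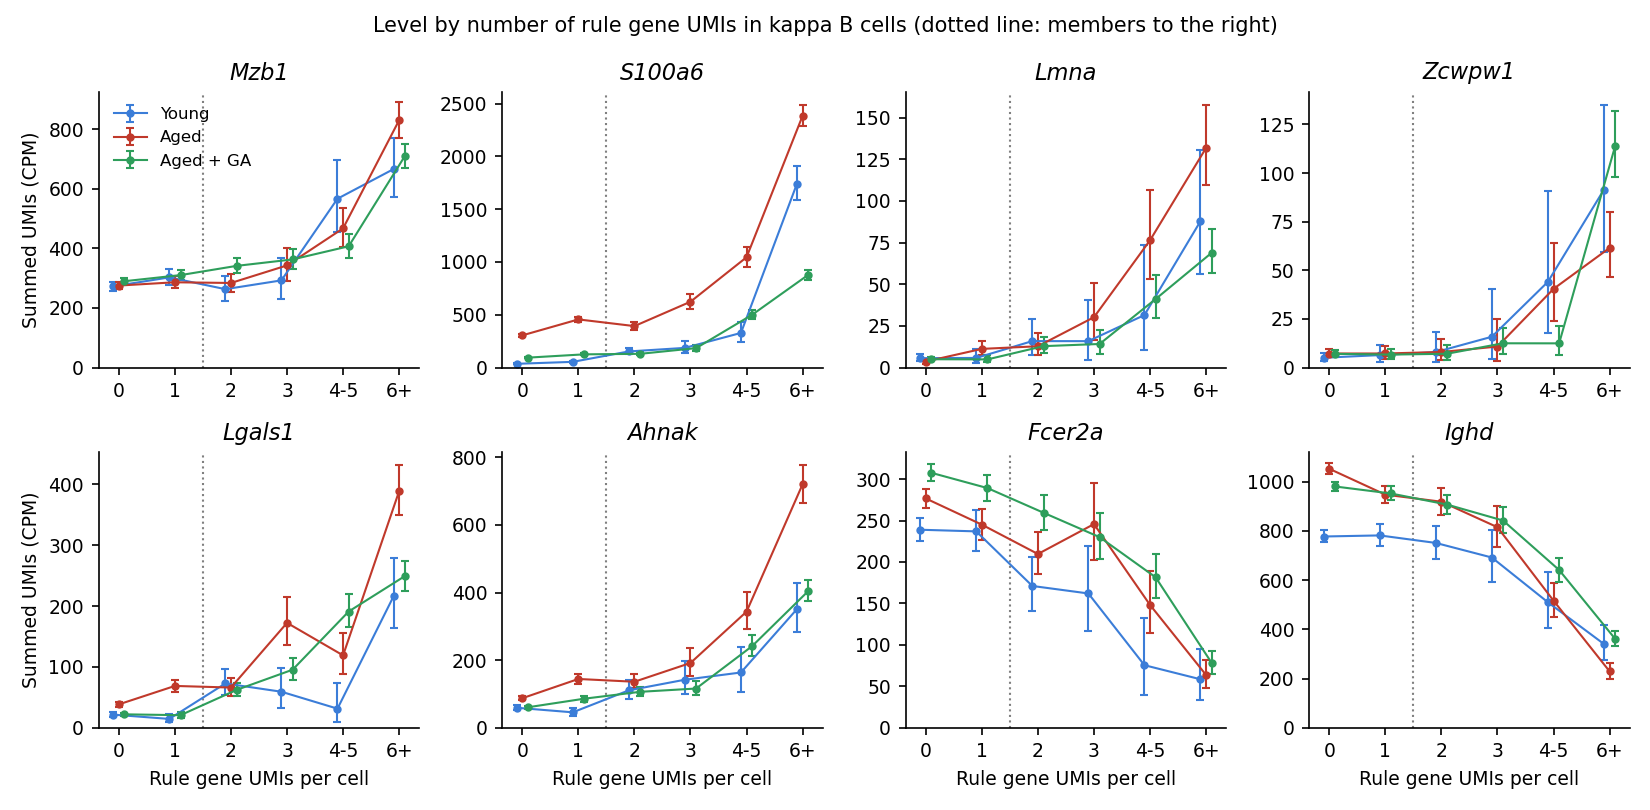
Summed UMIs (CPM) of 8 genes in kappa B cells grouped by their number of Zbtb20, Fcrl5, Bhlhe41 and Zbtb32 UMIs, with exact 95% Poisson intervals, in the young (blue), aged (red) and aged-GA (green) libraries. Members lie to the right of the dotted line. Mzb1, S100a6, Lmna, Zcwpw1, Lgals1 and Ahnak are highest, and Fcer2a and Ighd lowest, in cells with 6 or more.

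Of 7799 genes with at least 50 UMIs over members and other kappa B cells in each library, 25 (0.321%) were at least 2-fold higher in members in all 3 libraries. These were Adm, Ahnak, Anxa2, Ass1, Atf3, Atxn1, Ccdc28b, Ccnd2, Cd9, Gzmb, Hepacam2, Itgb1, Kcnn4, Lgals1, Lmna, Myadm, Nid1, Plscr1, Ptms, Rilpl2, S100a6, Tmem154, Vim, Wee1 and Zcwpw1. They include genes of the cytoskeleton, membrane and nuclear envelope (Vim, Ahnak, Anxa2, Lmna), an integrin chain (Itgb1), a tetraspanin (Cd9), cell cycle regulators (Ccnd2, Wee1) and a stress-induced transcription factor (Atf3). A single gene, the predicted gene Gm4221, was at least 2-fold lower in all 3 (0.0128% of those tested), at log2 ratios of -1.62, -1.50 and -1.04. Library by library, 68 genes (0.872%) in young, 46 (0.59%) in aged members and 52 (0.667%) in the aged-GA library were at least 2-fold higher, and 51 (0.654%), 9 (0.115%) and 2 (0.0256%) at least 2-fold lower. Genes above 0 in all 3 libraries made up 23.6% of those tested, and genes below 0 made up 15.9%.

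Lmna, which encodes lamin A and C of the nuclear envelope, ranked first when genes were ordered by the library nearest to 0. It stood at 32.7 CPM (23.6 to 44.0) in young, 59.8 CPM (51.5 to 69.1) in aged and 32.6 CPM (28.2 to 37.4) in aged-GA members, against 5.63, 5.59 and 4.93 CPM in other kappa B cells. The log2 ratios were 2.34, 3.21 and 2.5, and Lmna was found in 17, 65 and 86 members. Lgals1, the gene of galectin-1, stood at 95.0, 185 and 140 CPM in members and at 20.02, 46.5 and 21.8 CPM in other kappa B cells. Its log2 ratios were 2.19, 1.97 and 2.63. S100a6 stood at 510, 1111 and 399 CPM in members and at 39.3, 344 and 102 CPM in other kappa B cells, with log2 ratios of 3.66, 1.69 and 1.95. S100a6 was higher in members in each library, but its level in other kappa B cells also ranged from 39.3 to 344 CPM between libraries, and T cells held 117, 1243 and 756 CPM of it. In the young library 5 of the 241 members held 70.04% of the members' S100a6 UMIs, against 31.7% in aged and 20.6% in aged-GA members.

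Zcwpw1 stood at 31.1, 28.9 and 37.0 CPM in members and at 5.34, 7.20 and 6.91 CPM in other kappa B cells. Ahnak, a giant scaffold protein gene, stood at 173, 348 and 209 CPM against 56.2, 103 and 68.1 CPM. Ass1, the gene of argininosuccinate synthase in arginine synthesis, stood at 42.5, 50.1 and 38.6 CPM against 11.1, 11.8 and 11.3 CPM. The log2 ratios of these 3 genes lay between 1.61 and 2.34. In the young library the values rest on few cells: 5 of the 241 members held 73.2% of the members' Zcwpw1 UMIs (38.2% in aged, 39.8% in aged-GA), 53.6% of the Ass1 UMIs, 65.1% of the Lmna UMIs and 67.5% of the Atf3 UMIs. Kcnn4, a calcium-activated potassium channel gene, had log2 ratios of 2.25, 1.47 and 1.55, and Plscr1, a phospholipid scramblase gene, 2.45, 1.68 and 1.70. Nid1, the gene of the basement membrane protein nidogen, had 2.52, 2.72 and 1.72. Adm, the gene of the peptide adrenomedullin, had 1.90, 2.41 and 2.60, and in the young library 5 cells held 81.1% of its UMIs in members. Atf3 had 2.05, 1.54 and 2.17, and Ccdc28b, a gene linked to ciliary function, 1.76, 1.62 and 1.44.

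The genes lowest in members had smaller ratios. Fcer2a stood at 134 CPM (115 to 156), 163 CPM (149 to 178) and 193 CPM (182 to 204) in members and at 238, 268 and 302 CPM in other kappa B cells, with log2 ratios of -0.82, -0.72 and -0.64. Vpreb3, a gene of the pre-B cell receptor family, stood at 215, 205 and 172 CPM against 325, 324 and 288 CPM. Cd93, a surface marker of transitional B cells, stood at 0.76, 8.46 and 4.09 CPM against 8.01, 12.8 and 7.81 CPM, and the young value in members was 1 UMI. Pde2a, a cyclic nucleotide phosphodiesterase gene, had log2 ratios of -0.73, -1.01 and -0.64. Oasl1, an interferon-induced gene, had -0.96, -0.95 and -0.85. Chchd10, Apbb3, Zfp608, Rtp4, Spns2, Car2 and Rflnb completed the 12 lowest, at log2 ratios between -0.91 and -0.47.

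**Figure D3:**
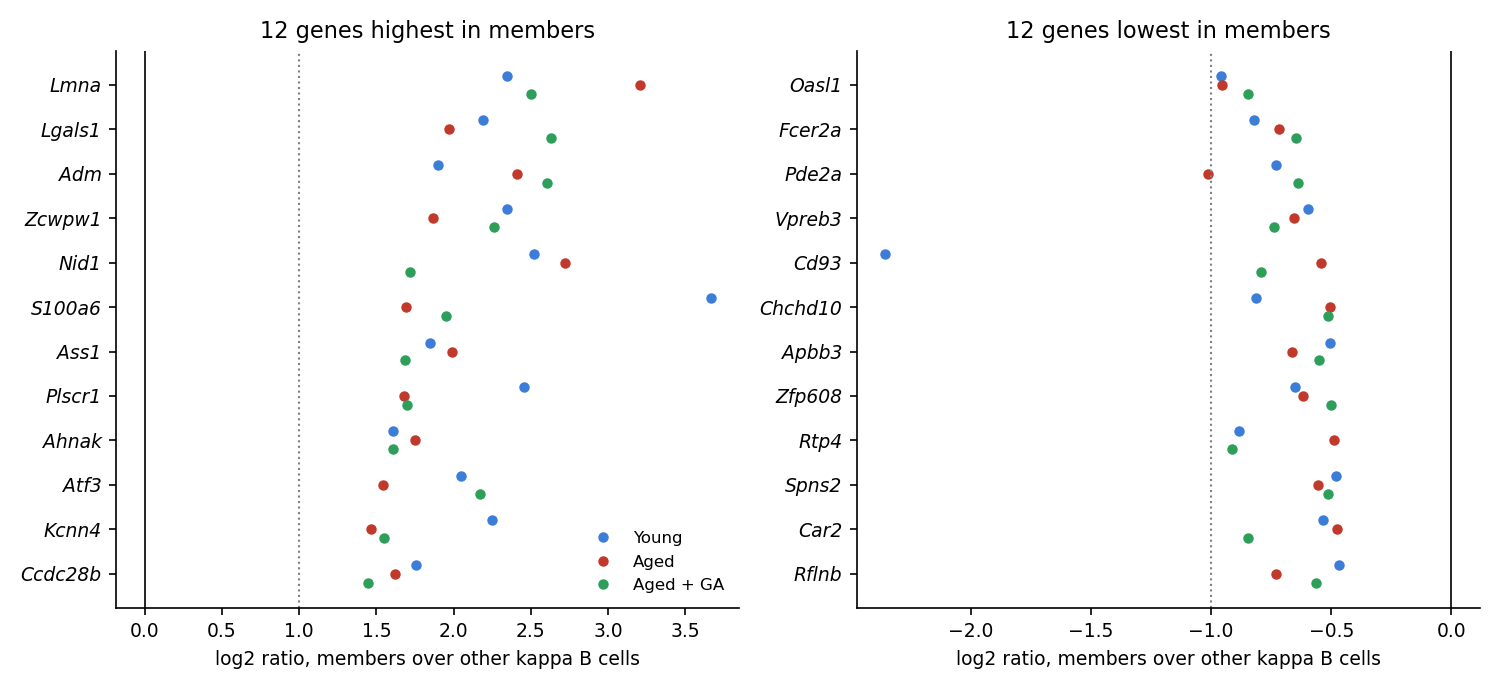
Log2 ratio of members over other kappa B cells (1 CPM added to both) for the 12 genes ranked highest and the 12 ranked lowest by the library nearest to 0, in the young (blue), aged (red) and aged-GA (green) libraries, without intervals. Dotted lines mark a 2-fold difference. The 12 highest genes lie beyond 2-fold in each library, while of the 12 lowest only Cd93 in young (-2.36) and Pde2a in aged (-1.01) pass it.

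Barcodes with markers of other cell types were counted by a fixed UMI limit, which follows depth, and members were deeper. At least 10 UMIs of NK cell, monocyte and macrophage, neutrophil or platelet markers were found in 9 of 241 young members (3.73%), 51 of 621 aged members (8.21%) and 45 of 1046 aged-GA members (4.30%), against 1.17%, 4.10% and 1.93% of other kappa B cells. Among barcodes of 10000 or more UMIs, 4 of 20, 20 of 38 and 26 of 98 members carried such markers, and 3 of 7, 52 of 55 and 19 of 50 other kappa B cells did. Without these barcodes 28 genes were at least 2-fold higher in members, of which 23 were among the 25. With other kappa B cells weighted to the members' depth, 8 genes were, all of them among the 25 (Adm, Ass1, Ccdc28b, Kcnn4, Lmna, Nid1, Plscr1 and Zcwpw1). With both steps 13 were, of which 11 were among the 25 (Adm, Ahnak, Anxa2, Atf3, Ccdc28b, Lgals1, Lmna, Myadm, Plscr1, S100a6 and Zcwpw1), and the other two were Csf2rb and Id2. Under both steps the log2 ratios of S100a6 were 3.26, 2.56 and 2.20, of Lgals1 2.32, 1.95 and 2.82, and of Fcer2a -0.75, -0.59 and -0.50.

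Genes known from B-1 cells were higher in members as a group. Zbtb20, Fcrl5 and Bhlhe41, which chose the members, are themselves genes of B-1 cells. The list was chosen with earlier results of these data known, so its counts, here and below, describe the members and test nothing. Of 15 genes on the list 9 passed the UMI minimum, and all 9 were above 0 in each library, beside 23.6% of all genes tested. Their median log2 ratio was 2.19 in young, 1.18 in the aged and 1.41 in the aged-GA library, beside 0.07, -0.01 and 0.03 over all genes tested. At least 2-fold higher in all 3 libraries were Anxa2, Cd9, Lgals1, Plscr1, S100a6 and Zcwpw1. Cd9 stood at 75.2, 79.7 and 65.1 CPM in members and at 23.3, 35.7 and 29.8 CPM in other kappa B cells. Il5ra, the interleukin-5 receptor chain of B-1 cells, stood at 22.8, 21.1 and 16.7 CPM against 14.5, 10.1 and 9.22 CPM. Spn, the gene of CD43, stood at 7.60, 38.1 and 23.4 CPM against 6.38, 16.7 and 8.19 CPM. Cd5, the defining surface antigen of B-1a cells, was below the minimum at 0.76, 3.90 and 4.25 CPM in members, and Lin28b, a fetal regulator, was at 0 in each library. The list's medians were 0.60, 0.46 and 0.53 with other cells weighted to the members' depth. Above 0 in all 3 libraries were then 5 of 9 genes, beside 1479 of all 7799 tested. Without barcodes that carried markers of other cell types the medians were 2.35, 2.17 and 2.01. There 8 of 8 genes were above 0, beside 1805 of all 7699 tested. With both steps the medians were 2.34, 1.79 and 1.69.

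Genes of follicular B cells were lower on balance. Of 12 genes tested 8 were below 0 in all 3 libraries and 2 were above, with median log2 ratios of -0.23, -0.33 and -0.23. Over all genes tested 15.9% were below 0 in all 3 libraries and 23.6% above. Satb1, a chromatin organiser, stood at 234, 181 and 215 CPM against 287, 297 and 329 CPM, and Ighd, the IgD constant gene, at 625, 640 and 706 CPM against 778, 1024 and 972 CPM. S1pr1, the receptor that draws lymphocytes into blood, was among the 2 above 0, at 91.9, 165 and 175 CPM against 80.8, 139 and 151 CPM. With both steps the medians were -0.14, -0.25 and -0.13.

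Marginal zone, age-associated and memory B cell genes gave weaker patterns. Over all genes tested 23.6% were above 0 in all 3 libraries and 15.9% below. With other cells weighted to the members' depth, 1479 of all 7799 genes were above 0 and 1193 below. With both steps 1606 of all 7699 genes were above 0 and 991 below. Of 10 marginal zone genes tested 7 were above 0 in all 3 libraries and 2 below, with medians of 0.36, 0.25 and 0.28. With other cells weighted to the members' depth 4 were above 0 and 3 below, with medians of 0.06, 0.10 and -0.05. With both steps 4 were above 0 and 0 below, with medians of 0.25, 0.14 and 0.06. Cr2, the complement receptor CD21 that is abundant on marginal zone cells, was not higher, at 56.2, 73.5 and 68.9 CPM in members and 56.8, 104 and 97.4 CPM in other kappa B cells. Of 8 age-associated B cell genes 7 were above 0, with medians of 0.35, 0.28 and 0.86, and 2 of the list, Lgals1 and S100a6, are also on the B-1 list. Under depth weighting 4 of the 8 were above 0 and 3 below, with medians of -0.12, 0.03 and 0.23. Under both steps 7 were above 0 and 1 below, with medians of 0.43, 0.62 and 0.81. Apoe, the apolipoprotein E gene, stood at 777, 938 and 1015 CPM against 664, 482 and 548 CPM. The factor that defines age-associated B cells, Tbx21, was below the minimum at 2.28, 2.60 and 3.27 CPM, and Itgax, the gene of CD11c, stood at 0.76, 2.93 and 3.6 CPM. Of 8 memory B cell genes 3 were above 0 and 2 below, with medians of 0.16, 0.20 and 0.04. Cd80 and Nt5e, surface markers of memory B cells in mice, were below the UMI minimum. Cd80 stood at 11.4, 15.0 and 13.3 CPM in members against 1.78, 2.56 and 2.43 CPM, and Nt5e, the gene of CD73, at 2.28, 15.0 and 27.2 CPM against 1.04, 2.75 and 5.44 CPM. Cd44, an adhesion receptor of experienced lymphocytes, had log2 ratios of 0.77, 0.81 and 1.15.

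Among B cell transcription factors, 9 of 24 tested were above 0 in all 3 libraries and 6 below, beside 23.6% and 15.9% of all genes tested. Tcf4, the E protein E2-2, stood at 222, 295 and 313 CPM in members and 145, 196 and 203 CPM in other kappa B cells, with log2 ratios of 0.61, 0.59 and 0.62. The ratio was alike in the 3 libraries, and with other cells weighted to the members' depth it was 0.72, 0.73 and 0.56. Irf4, a factor of activated B cells and plasma cells, stood at 36.5, 39.7 and 31.7 CPM against 17.6, 26.0 and 23.7 CPM. Id2, an inhibitor of E proteins, stood at 124, 79.0 and 71.3 CPM against 63.9, 42.7 and 30.5 CPM, and its log2 ratios with depth weighting alone were -0.34, -0.16 and 0.35. T cells held 214, 255 and 226 CPM of Id2. Ebf1, a factor of B cell identity, had log2 ratios of -0.32, -0.35 and -0.34, and Bach2, which restrains plasma cell formation, -0.01, -0.57 and -0.26.

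Signaling and secretory genes moved little. Over all genes tested 23.6% were above 0 in all 3 libraries and 15.9% below. With other cells weighted to the members' depth, 1479 of all 7799 genes were above 0 and 1193 below. With both steps 1606 of all 7699 genes were above 0 and 991 below. Of 24 B cell receptor signaling genes 8 were above 0 in all 3 libraries and 2 below, with medians of 0.07, 0.12 and 0.06, and Nfatc1, a calcium-activated factor, stood highest at log2 ratios of 0.97, 0.55 and 0.42. Of 21 secretory pathway and plasma cell genes 11 were above 0 and 2 below, with medians of 0.13, 0.14 and 0.14. Xbp1, which drives the secretory programme, stood at 25.1, 43.3 and 41.1 CPM against 25.7, 50.4 and 36.3 CPM, with no common direction. Of 10 survival genes 6 were above 0 and 0 below, and Pim1, a survival kinase gene, had log2 ratios of 0.53, 0.29 and 0.49. With other cells weighted to the members' depth 1 of the 10 was above 0 and 0 below, and with both steps 6 were above 0. Of 13 antigen presentation genes 9 were below 0, with medians of -0.20, -0.14 and -0.12, and Cd74, the invariant chain of MHC class II, had -0.30, -0.14 and -0.13. Under depth weighting 2 of the 13 were above 0 and 2 below, with medians of -0.07, 0.10 and 0.01. Under both steps 1 was above 0 and 4 below. Of 17 homing genes 5 were above 0 and 4 below, and Itgb1, the integrin beta 1 chain, stood at 38.7, 106 and 99.1 CPM against 18.1, 38.8 and 24.4 CPM. T cells held 50.5, 314 and 247 CPM of Itgb1. Of 11 inhibitory receptor and phosphatase genes 4 were above 0 and 3 below, and Fcgr2b, the inhibitory Fc receptor, had log2 ratios of 0.16, 0.60 and 0.68.

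**Figure D4:**
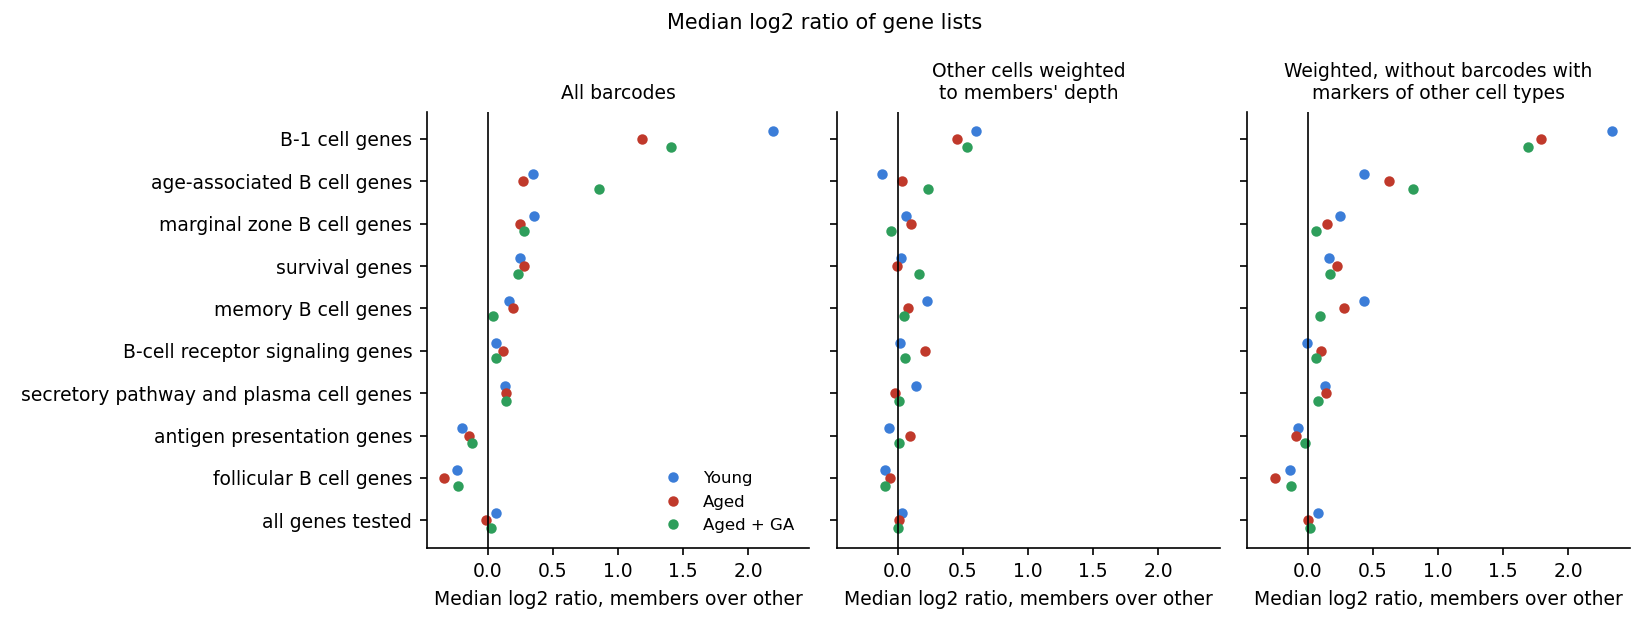
Median log2 ratio of members over other kappa B cells for 9 gene lists and all genes tested in the young (blue), aged (red) and aged-GA (green) libraries: all barcodes (left), other kappa B cells weighted to the members' depth (middle), and weighted after removal of barcodes with markers of other cell types (right). The B-1 list stands at 2.19, 1.18 and 1.41 on the left, 0.60, 0.46 and 0.53 in the middle and 2.34, 1.79 and 1.69 on the right.

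The members with Fcrl5, Bhlhe41 or Zbtb32 and those with Zbtb20 alone were also read apart. Against other kappa B cells, 51 genes (0.654% of 7799) were at least 2-fold higher in the first in all 3 libraries. That count was 22 with other cells weighted to depth, of which 20 were among the 51, and 63 to 145 when 1 library was left out. For members with Zbtb20 alone the count was 4 (0.0513%), namely the chemokine gene Ccl5 and the cytotoxic genes Gzma, Gzmb and Prf1 of NK and T cells. Without barcodes that carried markers of other cell types this count was 0, a comparison with 1 library per group and no test. All 4 genes are among those markers, so the removal takes out their UMIs by design and the 0 decides nothing. Set directly against members with Zbtb20 alone, the members with Fcrl5, Bhlhe41 or Zbtb32 were at least 2-fold higher for 25 genes (0.434% of 5754 tested) and at least 2-fold lower for 14 (0.243%). Higher were Crip1, a LIM domain protein gene of memory and innate-like lymphocytes, at log2 ratios of 1.90, 2.07 and 1.40, Tmem154 (2.49, 1.95 and 1.49), Wee1 (1.66, 2.02 and 1.56) and Vim (1.45, 1.93 and 1.47). Lower were Cr2 (-1.17, -1.54 and -1.20), Fcer2a (-1.19, -1.27 and -1.11), Satb1 (-1.23, -1.40 and -1.04) and Zfp318, which is needed for IgD expression (-1.30, -1.12 and -1.01). All 7 B-1 genes tested were above 0, with medians of 1.43, 2.07 and 1.71, and 8 of 12 follicular genes were below 0, with medians of -0.53, -0.55 and -0.38. Over all genes tested the medians were -0.11, -0.04 and -0.01, with 20% above 0 in all 3 libraries and 28.2% below.

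NK markers were higher in members for each gene tested. Of 7 NK genes tested 7 were above 0 in all 3 libraries, beside 23.6% of all genes tested. The summed level of the 9 markers was 534, 570 and 460 CPM in members and 278, 314 and 233 CPM in other kappa B cells. It came from few barcodes: 5 young, 7 aged and 9 aged-GA members with at least 10 such UMIs held 95.6%, 88.4% and 77.9% of it. With other cells weighted to the members' depth the NK medians were -0.68, -0.33 and -0.03, with 0 of 7 genes above 0 in all 3 libraries and 2 below. Of all 7799 genes tested, 1479 were then above 0 and 1193 below. Without barcodes with markers of other cell types 1 NK gene was tested, at -0.67, -0.41 and -0.29. The NK markers helped to set that removal, so these values decide nothing. Summed monocyte and macrophage markers were 384, 2153 and 1150 CPM in members and 470, 2432 and 746 CPM in other kappa B cells. Neutrophil markers were 7.60, 1792 and 1290 CPM against 9.79, 3297 and 1273 CPM, and erythroid markers 1092, 7916 and 7648 CPM against 1270, 9765 and 6714 CPM. T cell markers were 414, 382 and 467 CPM against 340, 307 and 381 CPM, and plasma cell markers, Mzb1 among them, 515, 792 and 653 CPM against 370, 430 and 436 CPM. Platelet markers summed to 0, 8.78 and 11.9 CPM in members. The part of free RNA and of barcodes with more than 1 cell in these sums was not tested beyond the removals given above.

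The constant region of the antibody heavy chain was read as the heavy chain gene with most UMIs in a cell. IgM was dominant in 94.4%, 87.4% and 92.0% of members with a call. IgG or IgA was dominant in 2 of 233 young members (0.858%, 0.104 to 3.07), 50 of 596 aged members (8.39%, 6.29 to 10.9) and 45 of 1028 aged-GA members (4.38%, 3.21 to 5.81). Among other kappa B cells it was 0 of 1772 in young, which allows a share of up to 0.169% (3 counts), 6 of 2896 in aged (0.207%) and 12 of 3752 in aged-GA (0.320%). Switched cells were thus more frequent among members than among other kappa B cells in the aged and aged-GA libraries, with intervals that did not overlap, and the aged share stood above the aged-GA share.

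The switched cells lay mostly among members with Fcrl5, Bhlhe41 or Zbtb32. There they were 2 of 77 in young (2.60%), 43 of 244 in aged (17.6%, 13.1 to 23.0) and 34 of 391 in aged-GA (8.70%, 6.10 to 11.9). Among members with Zbtb20 alone they were 0 of 156 in young, which allows up to 1.92% (3 counts), 7 of 352 in aged (1.99%) and 11 of 637 in aged-GA (1.73%). IgA was dominant in 24 aged members (4.03%) and 8 aged-GA members (0.778%). IgG2b was dominant in 9 aged and 18 aged-GA members, IgG2c in 8 and 9, IgG3 in 6 and 4, and IgG1 in 3 and 6. Both switched young members had IgG3. The aged and aged-GA libraries differed mainly in IgA, and with 1 library each the mice behind them cannot be told apart from the treatment.

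**Figure D5:**
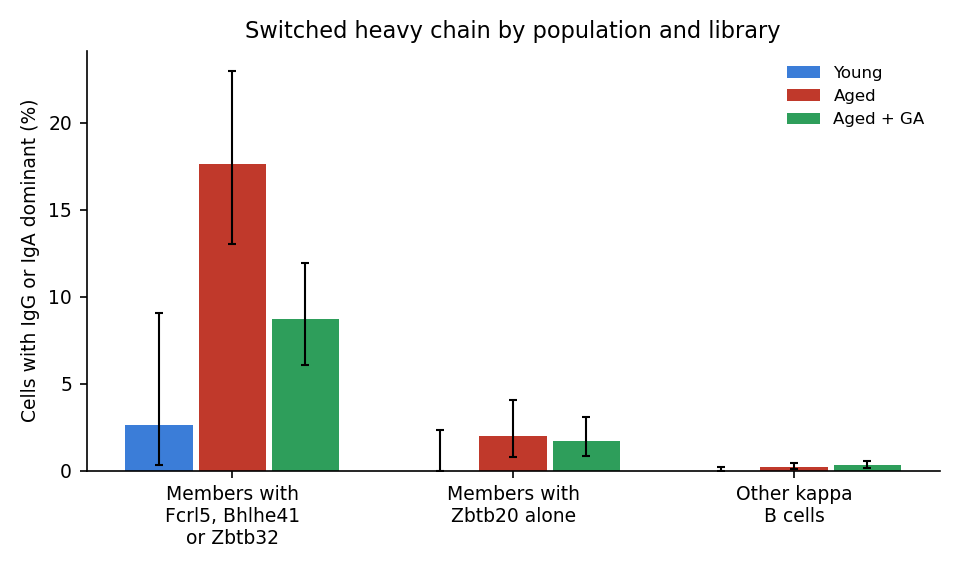
Share of cells with IgG or IgA as the dominant heavy chain, in percent of cells with a call and with exact 95% intervals, in members with Fcrl5, Bhlhe41 or Zbtb32, members with Zbtb20 alone and other kappa B cells of the young (blue), aged (red) and aged-GA (green) libraries. The tallest bar is the aged one among the first (17.6%), and all bars of other kappa B cells lie at 0.320% or below.

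Members had less IgD for their IgM, mainly those with Fcrl5, Bhlhe41 or Zbtb32. The ratio of Ighm to Ighd UMIs was 4.89, 5.11 and 4.91 in members and 3.21, 2.96 and 3.04 in other kappa B cells. It was 7.5, 9.68 and 7.95 in members with Fcrl5, Bhlhe41 or Zbtb32, and 3.79, 3.09 and 3.46 in those with Zbtb20 alone. All lambda B cells, with or without rule gene UMIs, stood at 4.52, 4.11 and 4.08. Ighm was 2446, 3040 and 2928 CPM in kappa B cells with 0 rule gene UMIs and 4230, 3803 and 4060 CPM in those with 6 or more. Ighd was 777, 1052 and 980 CPM at 0 and 340, 229 and 361 CPM at 6 or more. A high ratio of IgM to IgD is a known trait of B-1 and marginal zone cells. Here Ighm was higher and Ighd lower in the cells with most rule gene UMIs, in each library.

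Lambda B cells, which the rule left out, were read with the same 4 genes. At least 2 UMIs were found in 31 of 150 lambda B cells in the young library (20.7%), in 100 of 451 in the aged library (22.2%) and in 83 of 397 in the aged-GA library (20.9%). Mzb1 stood at 497, 469 and 511 CPM in them and at 318, 346 and 352 CPM in the other lambda B cells. Fcer2a stood at 136, 160 and 226 CPM against 222, 230 and 335 CPM, and Lgals1 at 59.2, 173 and 283 CPM against 20.9, 37.1 and 48.5 CPM. The directions were those seen in kappa B cells, read in cells that did not choose the genes. The lambda B cells with at least 2 UMIs were also deeper, with medians of 4198, 3906.5 and 4478 UMIs against 3568, 2898 and 3532.5 UMIs, and the part of depth or of barcodes with markers of other cell types was not tested in them. Of the 25 genes higher in members, 10 had at least 20 UMIs in the lambda cells of each library, and 9 of the 10 were above 0 in all 3, beside 15.8% of 3591 genes tested. Their medians were 1.24, 1.70 and 2.33, beside 0.03, -0.02 and -0.04 over all genes tested. Of 12 follicular genes none was above 0 in all 3 libraries and 5 were below, beside 569 and 659 of all 3591 genes tested.

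Variable gene segments were too sparse to read in most members. A heavy chain segment with at least 2 UMIs was found in 23 young, 22 aged and 32 aged-GA members, and no pair of heavy and kappa segments was seen in more than 1 cell. Ighv11-2, a segment of B-1a antibodies against phosphatidylcholine, was dominant in 2 of these 23 young cells, 2 of the 22 aged cells and 1 of the 32 from the aged-GA library. A kappa segment was called in 24, 68 and 44 members. Igkv12-44 was dominant in 6 of the 24 young ones (25%, 9.77 to 46.7), against 17 of 166 other kappa B cells (10.2%, 6.08 to 15.9). Igkv1-117 was dominant in 12 of the 68 aged ones (17.6%, 9.47 to 28.8), against 13 of 144 other kappa B cells (9.03%, 4.89 to 14.9). Both were also the most frequent kappa segment of other kappa B cells in their library, and the intervals overlapped.

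Members of the aged library were set against those of the young library, which carries age together with supplier and library. Of 4944 genes that reached 100 UMIs in the 2 libraries combined, 205 (4.15%) were at least 2-fold higher in aged members and 38 (0.769%) at least 2-fold lower. In other kappa B cells the counts over the same genes were 214 (4.33%) and 38 (0.769%), and 112 of the higher genes (54.6% of those in members, 52.3% of those in other cells) and 29 of the lower genes (76.3% of each) were shared. The median gene stood at 0.19 in members, and changes are to be read against that value. The counts were 116 higher and 71 lower when the median ratio was set to 0.

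The highest genes were those of neutrophils and monocytes. S100a8, a neutrophil alarmin gene, had 3 UMIs in young and 2409 UMIs in aged members, a log2 ratio of 7.90 (interval 6.88 to 10.7), beside 8.51 in other kappa B cells. S100a9 had 5 and 2480 UMIs. Retnlg, Slpi and Chil3 had 0 UMIs in young members and 388, 280 and 174 UMIs in aged members. Lyz2, the macrophage lysozyme gene, had 16 UMIs in young members, all in 1 cell, and 3129 UMIs in aged members, spread over 263 of 621 cells, beside 1138 of 3051 other kappa B cells. These genes appeared in members and in other kappa B cells alike. Without barcodes with markers of other cell types 135 genes (3.04%) were at least 2-fold higher, of which 109 were among the 205.

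The 6 lowest genes were Gadd45g, Ddit4, Hspa2, Dusp2, Gadd45b and Stat4. Gadd45g, a stress-inducible growth arrest gene, stood at 137 CPM in young members and 32.8 CPM in aged ones (log2 ratio -2.03), Gadd45b at 312 and 103 CPM (-1.59), and Dusp2, a phosphatase gene of activated lymphocytes, at 712 and 220 CPM (-1.69). Ddit4, a stress-induced inhibitor of mTOR signaling, had a log2 ratio of -1.96, Hspa2 -1.78 and Stat4 -1.57. In other kappa B cells the same 6 genes had ratios between -2.05 and -1.23. Of 15 immediate early and stress genes 13 were below 0, with a median of -0.62, beside -0.48 in other kappa B cells, and 30.1% of all genes tested were below 0. Of these 15, Ier5 and Junb were at least 2-fold lower and Nr4a1 at least 2-fold higher. Kept barcodes with 5 to 7.5% mitochondrial UMIs were 54.8% in the young and 4.70% in the aged library, and the part of handling in these genes was not tested.

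Of 9 B-1 genes tested 7 were above 0 in aged over young members, as were 69.9% of all genes tested. Their median was 1.12, beside 1.26 in other kappa B cells, and Anxa2, Itgam, S100a6, Spn and Tppp3 were at least 2-fold higher. S100a6 was higher in aged T cells too, at 1243 CPM against 117 CPM. Of the 5 heavy chain genes tested Igha, Ighg2b and Ighg3 were at least 2-fold higher. Igha stood at 1.52 and 164 CPM in young and aged members and at 1.48 and 31.9 CPM in other kappa B cells, Ighg2b at 12.2 and 108 CPM, and Ighg3 at 27.3 and 78.4 CPM. Ighg2b and Ighg3 were at most 3.50 CPM in other kappa B cells of these libraries. Mzb1 differed less, at 389 and 481 CPM.

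Members of the aged-GA library were set against the same aged library, so this comparison shares its aged cells with the one above. Of 7170 genes tested 6 (0.0837%) were at least 2-fold higher in aged-GA members and 34 (0.474%) at least 2-fold lower, beside 1 (0.0139%) and 75 (1.05%) in other kappa B cells. None of the 6 was shared, and 28 of the 34 were (82.4% of those in members, 37.3% of those in other cells). The 6 were Camp, Ngp, Dnm3, Ctla2a, Plcxd2 and Rgs1. Rgs1, which encodes a regulator of chemokine receptor signals, stood at 24.4 CPM in aged members and 53.2 CPM in aged-GA members, a log2 ratio of 1.09 (0.76 to 1.51), beside -0.04 in other kappa B cells. In aged other kappa B cells 1 cell held 69 of the 271 Rgs1 UMIs. Rgs1 was found in 3.64% of aged and 5.67% of aged-GA other kappa B cells, and in 7.73% and 13.4% of members. Dnm3, a dynamin gene, stood at 6.18 and 22.1 CPM, a log2 ratio of 1.69 (1.14 to 2.61), beside 0.62. In other kappa B cells Dnm3 had only 2 UMIs in aged and 13 UMIs in aged-GA. At such low levels the 1 CPM added to both shrinks the ratio, so that 0.62 cannot be set against 1.69. Without barcodes with markers of other cell types 4 genes were at least 2-fold higher, Adgre1, Dnm3, Rgs1 and Rnf125. Whether the ratios of members and other kappa B cells differ was not tested, since each rests on 1 library a group.

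The lower genes were in part those of monocytes. Mt1, a metallothionein gene, had a log2 ratio of -2.55, Chil3 -2.35, Fn1, the fibronectin gene, -1.63, and Cdk5rap1 -1.49. The monocyte and macrophage list had a median of -1.03 in members and -1.68 in other kappa B cells. Tppp3, a gene of the B-1 list, stood at 45.9 CPM in aged members and 9.49 CPM in aged-GA members, and S100a6 at 1111 and 399 CPM (-1.48, beside -1.74 in other kappa B cells). The B-1 list as a whole had a median of -0.32, beside -0.52. Igha stood at 164 and 67.4 CPM and Ighg3 at 78.4 and 35.0 CPM, while Ighg2b stood at 108 and 98 CPM. Without barcodes with markers of other cell types 12 genes were at least 2-fold lower, and 10 of them, S100a6, Tppp3 and Ighg3 included, were among the 34. The log2 ratios of the rule genes Zbtb20 and Fcrl5 were -0.06 and -0.24, and that of Mzb1 was -0.09 (interval -0.18 to 0.01).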

How the data were processed

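The authors made count matrices of UMIs per gene and barcode from Chromium 3′ libraries sequenced on the DNBseq platform. The deposited counts are raw, for 32285 features in 10842, 16038 and 17332 barcodes (58894294, 82260961 and 98155671 UMIs). The file headers name Cell Ranger 5.0.0, the study's methods another version, and the submitters' processing notes the build mm10. Groups came from the labels. The filters were those of the selection rule. The members and gene lists were chosen with earlier results of these data known.

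UMIs were summed per population and library, scaled to CPM (per 1000000 UMIs) and set against each other as log2 ratios after 1 CPM was added, over genes with at least 50 UMIs in each library (100 UMIs over both libraries for comparisons between libraries). As each group is 1 library, no significance test applies. For a count of 0 the limit is 3 counts. Intervals are exact (Clopper-Pearson for shares, Poisson for counts) at 95%, cover counting error only, and for ratios are taken without the pseudocount. Named genes were the rule genes, the genes of the lists, the 12 highest and 12 lowest ratios within libraries, the 6 highest and 6 lowest between libraries and the most frequent V segments, without predicted, ribosomal, mitochondrial, haemoglobin and immunoglobulin genes. Doublets were marked with Scrublet in scanpy 1.11.5, which called 4.17%, 3.96% and 0.0277% of kept barcodes (young, aged, aged-GA) and so did not work in the last. They were kept, and their removal is an alternative. No member barcode was shared between libraries, and 50 to 62 of all barcodes were. Python 3.11.15, numpy 2.4.6 and pandas 2.3.3 were used. The count procedure was tested on simulated data. Gene positions are from GENCODE on GRCm38.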

Additional observations from a re-analysis of the deposited data

Results flagged for a closer look

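Camp and Ngp, genes of neutrophil granules, were higher in aged-GA than in aged members and lower in aged-GA than in aged other kappa B cells. The log2 ratio of Camp was 3.11 in members and -1.83 in other kappa B cells, and that of Ngp was 2.70 and -1.97. In aged-GA members 1 cell held 188 of 219 Camp UMIs and 209 of 228 Ngp UMIs. In aged members both genes were found at 1 UMI a cell, in 10 and 15 cells. In aged other kappa B cells 5 of 3051 cells held 797 of 846 Camp UMIs (94.2%) and 996 of 1072 Ngp UMIs (92.9%). Without barcodes with markers of other cell types the ratio of Ngp in members was -0.51. Camp and Ngp are themselves among those markers, so the removal takes out their UMIs by design and this value decides nothing. The difference between the 2 populations was not tested.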

How the results depend on the processing

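No paired analysis was possible because each group holds 1 library. Removal of barcodes with markers of other cell types or with the top 5% of Scrublet scores, and its combination with depth weighting, were chosen after seeing the data. Removal by markers takes out UMIs of the NK, monocyte, neutrophil and platelet markers by design, so values of those genes after it decide nothing. Share of members (young, aged, aged-GA): 5.30%, 8.31% and 11.9% at 3 UMIs, 30.6%, 36.5% and 42.3% at 1 UMI, 4.67%, 8.33% and 9.20% thinned to 2000 UMIs, 1.66%, 3.30% and 3.28% thinned to 1000 UMIs, 1.89%, 4.11% and 4.51% without Zbtb20, and 10.0% in young and 17.2% in aged-GA at 5% mitochondrial UMIs. Only thinning to 1000 UMIs among these put aged-GA below aged. The 25 genes higher in members became 11 with 10 CPM added, 68 with a minimum of 10 UMIs, 8 with depth weighting, 66 without Zbtb20 in the score, 13 with weighting and removal of marker barcodes, and 29 to 77 leaving out a library (77 without young). The 1 lower gene became 0 with 10 CPM added, mean CPM per cell or both steps, 6 with depth weighting, 3 at 3 UMIs, 36 without Zbtb20, and 1 to 2 leaving out a library. The 51 genes of members with Fcrl5, Bhlhe41 or Zbtb32 became 28, 120 and 22 (10 CPM, 10 UMIs, depth weighting) and 63 to 145 leaving out a library. The 4 of members with Zbtb20 alone became 2 and 10 (10 CPM, 10 UMIs), 1 at 3 UMIs, 0 with depth weighting, without Scrublet doublets, top scores or marker barcodes or with both steps, and 5 to 10 leaving out a library. The B-1 median over libraries (1.41) became 0.53 with depth weighting, 2.10 without Zbtb20, 2.17 without marker barcodes and 1.54 to 1.80 leaving out a library. The follicular median (-0.23) became -0.35 with median-of-ratios scaling, -0.10 with depth weighting, -0.16 with mean CPM, -0.34 at 3 UMIs, -0.72 without Zbtb20, -0.14 with both steps and -0.28 to -0.23 leaving out a library. Aged over young, the 205 higher genes became 91 (10 CPM), 820 (20 UMIs), 116 (median-of-ratios) and 135 (no marker barcodes), and the 38 lower 117 (20 UMIs) and 71 (median-of-ratios). Aged-GA over aged, the 6 higher became 2 (10 CPM), 63 (20 UMIs), 10 (mean CPM), 12 (3 UMIs), 14 (no Scrublet doublets) and 11 (no top scores), and the 34 lower 15, 122, 20 (3 UMIs), 11 (no doublets), 12 (no marker barcodes) and 17 (no top scores). Reversed were the medians of the heavy chain list (0.98 at 10 UMIs, -0.15 to 3.11 leaving out a library, 3.11 being without young), NK markers (-0.33 with depth weighting, -0.41 without marker barcodes) and monocyte markers (-1.25 with depth weighting), and Ngp aged-GA over aged (-0.51 without marker barcodes). Scrublet called 21 aged members and 0 aged-GA members, so that removal took barcodes from 1 of these 2 libraries. The causes were not tested. Switched shares kept within their intervals under each alternative run.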

Other observations

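Toll-like receptor, BAFF receptor, interferon and cell cycle genes gave no common direction in members. The shares of all genes tested were 23.6% above 0 in all 3 libraries and 15.9% below. Of 11 Toll-like receptor and adaptor genes tested 2 were above 0 in all 3 libraries and 1 below, and Cd180, a Toll-like receptor homolog of B cells, stood at 48.6, 93.0 and 82.3 CPM against 33.8, 69.8 and 65.2 CPM. Of 6 BAFF and TNF receptor genes 3 were above 0 and 1 below. Tnfrsf13b, the receptor TACI, stood at 79.0, 141 and 113 CPM against 76.2, 114 and 110 CPM. Of 7 interferon-stimulated genes 0 were above 0 and 2 below, and of 7 cell cycle genes 2 were above 0 and 3 below. Of 15 immediate early and stress genes 4 were above 0 and 5 below, with Atf3 the only one past 2-fold in all 3 libraries.

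Among members, a pair of plasmacytoid dendritic cell genes was seen in the young library alone. Siglech stood at 9.88 CPM and Klk1 at 14.4 CPM in young members, and both were at 0 in aged and aged-GA members. How many cells held them is not given here, so that they may rest on few barcodes. The dendritic cell markers summed to 141, 110 and 69.5 CPM in young, aged and aged-GA members. B-1 cell V segments were below the UMI minimum. Ighv11-2 stood at 5.32, 2.28 and 0.98 CPM in members and at 0.74, 0.09 and 0 CPM in other kappa B cells, and Igkv14-126, its usual light chain partner, at 7.60, 3.25 and 2.45 CPM against 1.78, 0.19 and 0.51 CPM.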
